A study of Arabidopsis thaliana with 12 samples.

Results

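IAA29, WES1 and GH3.3 are 3 auxin response genes of Arabidopsis thaliana, and their transcript levels were compared in seedlings lacking the chromatin remodeler BRM, the histone methyltransferase CLF, or both. They were taken by name, with earlier results of these data known, as genes to which a probe set was mapped singly. They make up 3 of the 13356 genes tested. Each had 1 such probe set, for the loci AT4G32280 (IAA29), AT4G27260 (WES1, also known as GH3.5) and AT2G23170 (GH3.3). RNA of whole seedlings 14 days old, in the Columbia (Col) background, was hybridised to 12 Affymetrix ATH1 arrays, 3 biological replicates per genotype. The mutants were brm-1, a T-DNA null allele of the SWI/SNF ATPase gene BRM, then clf-29, which affects CLF, an enzyme that places the repressive H3K27me3 mark, and the double mutant brm-1 clf-29. The fourth genotype was wild-type Col. Each mutation is carried in every cell of the plant, and 1 allele of each gene was used. Values are log2 MAS5 signals, in which a difference of 1 is a doubling, and errors of means are SD with n = 3.

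Auxin acts by bringing Aux/IAA proteins to receptors of the TIR1/AFB family, which leads to their breakdown and frees the ARF transcription factors that they hold in check. Aux/IAA genes and GH3 genes are among the targets of these factors. Aux/IAA proteins renew the repression and GH3 enzymes join auxin to amino acids, so that both families work as feedback on the hormone. IAA29 is an Aux/IAA gene known for its response to shade and to the PIF transcription factors of light signalling. WES1 and GH3.3 are amido synthetases of the GH3 family, and WES1 is also known for its links to stress and salicylic acid.

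The arrays had been scaled by the authors to a common mean, with array medians between 7.54 and 7.66. Replicate 3 of every genotype stood apart, with scores of −22.25 to −12.16 on a first principal component that held 30.9% of the variance of the brighter genes. Comparisons were therefore fitted over all 12 arrays, with a term for replicate 3 added, and within replicates 1 and 2. Probe sets for spiked bacterial transcripts served as a background measure, and 95% of their values lay under 4.71. Transcripts of BRM and CLF themselves were not analysed here, and no check of the labels rests on them. In RNA of whole seedlings fewer cells of a type and less RNA per cell cannot be told apart.

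IAA29 was the member that differed between genotypes. Its transcript was 7.69-fold lower in clf-29 than in brm-1, with wild type and double mutant between them. IAA29 signal was 5.61, 3.23 and 5.91 in clf-29 replicates 1, 2 and 3, against 7.07, 7.60 and 8.91 in brm-1. Every clf-29 array lay below every brm-1 array, and clf-29 replicate 2 lay under the background measure of 4.71. The difference was −2.94 ± 0.69 on the log2 scale (SE, 95% CI −4.43 to −1.45; adjusted p = 0.0399, limma with Benjamini-Hochberg adjustment over all genes). In that comparison 2.82% of all genes were called, at an adjusted p under 0.05, and the arrays of 18% did not overlap. The members had been chosen with earlier results of these data known, so the call is not an independent test.

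Adding the replicate 3 term left the size of this IAA29 difference as it was and lowered its SE to 0.52 (limma adjusted p = 0.00312; 7.51% of genes called). Within replicates 1 and 2 it was −2.92 (limma adjusted p = 0.018; 6.81% of genes called), and between the replicate 3 arrays it was −3.00. By replicate number it was −1.46, −4.37 and −3.00 for replicates 1, 2 and 3, so the sign was shared and the size was not, the largest of them resting on the clf-29 array under the background measure. Without the replicate 3 term, the call was kept without clf-29 replicate 3 and without brm-1 clf-29 replicate 2 or 3. Without any one of the other 9 arrays the difference was between −3.34 and −2.10 and the limma adjusted p between 0.0541 and 0.125. With the term it was kept without any one of the 12 arrays, at −3.52 to −2.25 and a largest limma adjusted p of 0.021. With values under 4.71 set to 4.71, an alternative chosen after seeing the data, it was −2.45 (limma adjusted p = 0.0745).

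**Figure D1:**
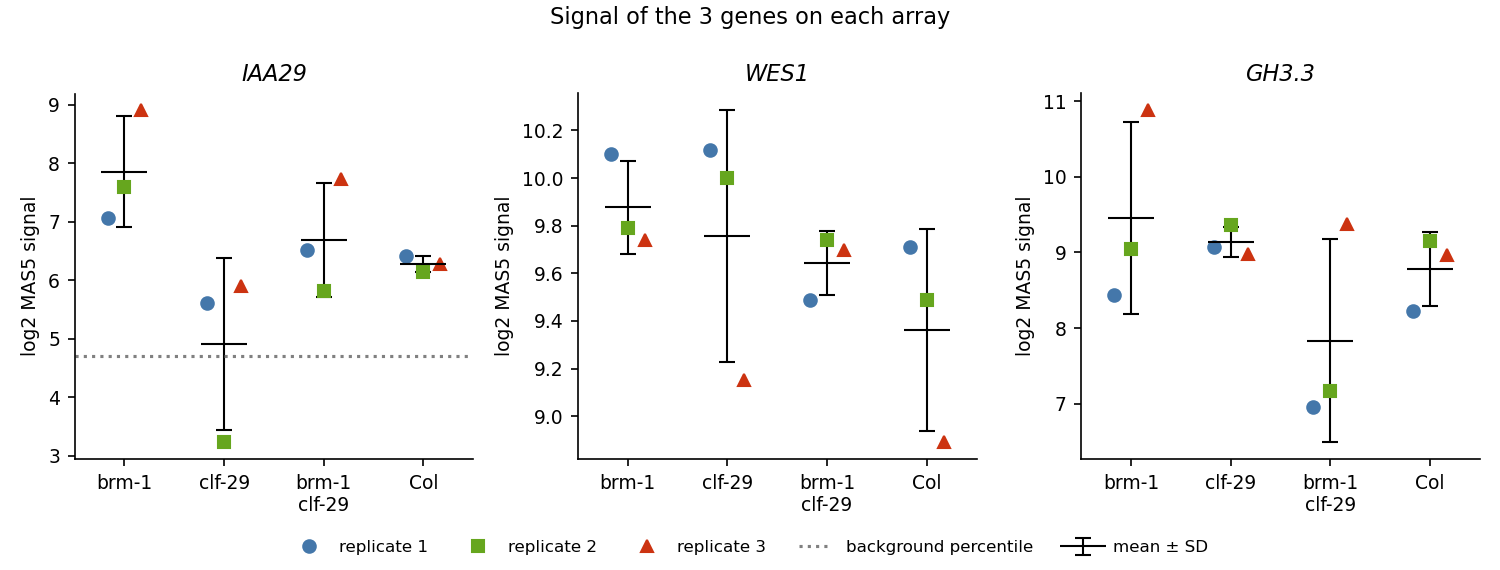
Log2 MAS5 signal (vertical axes, a separate range for each gene) of IAA29, WES1 and GH3.3 on each of the 12 arrays, by genotype, with the replicates as blue circles (1), green squares (2) and red triangles (3), the mean and SD as black bars, and the background measure of 4.71 as a dotted line. For IAA29 the 3 brm-1 arrays sit at 7.07 to 8.91, above all 3 clf-29 arrays at 3.23 to 5.91; for GH3.3 the replicate 3 arrays of brm-1 and brm-1 clf-29 sit far above the other 2 of their genotype.

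Neither single mutant passed the test for IAA29 against wild type, although they lay on opposite sides of it. IAA29 averaged 7.86 ± 0.95 in brm-1 and 6.28 ± 0.13 in Col, whose 3 arrays were at 6.41, 6.15 and 6.28. All brm-1 arrays were above all Col arrays, as was one or the other order in 20.6% of genes. The difference was 1.58 ± 0.69 (SE, 95% CI 0.09 to 3.07; limma adjusted p = 0.348, or 0.101 with the replicate 3 term). In brm-1 against Col 1.86% of genes were called, 5.47% with the term and 5.02% within replicates 1 and 2, where the IAA29 difference was 1.06. Between the replicate 3 arrays it was 2.63.

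In clf-29 the mean signal of IAA29 was 4.92 ± 1.47, against 6.28 ± 0.13 in Col. All clf-29 arrays were below all Col arrays, and the arrays of these genotypes did not overlap in 18% of genes. The difference was −1.36 ± 0.69 (SE, 95% CI −2.85 to 0.13; limma adjusted p = 0.471, or 0.179 with the replicate 3 term). It was −1.86 within replicates 1 and 2, −0.37 between the replicate 3 arrays, and −0.52 over all replicates without clf-29 replicate 2, the array under the background measure. Of all genes 0.943% were called in clf-29 against Col, 4.39% with the term and 5.5% within replicates 1 and 2.

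In the double mutant IAA29 was close to its wild-type level. The signal was 6.52, 5.81 and 7.74 in brm-1 clf-29, a mean of 6.69 ± 0.98, and those arrays surrounded the 3 of Col. The difference from Col was 0.41 ± 0.69 (SE, 95% CI −1.08 to 1.90; limma adjusted p = 0.829, or 0.711 with the replicate 3 term), a range that leaves room for a difference of either sign. It was −0.12 within replicates 1 and 2 and 1.46 between the replicate 3 arrays, so its direction depended on the replicates used. In brm-1 clf-29 against Col 4.99% of genes were called, 11.6% with the replicate 3 term and 11.4% within replicates 1 and 2.

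Set against the single mutants, brm-1 clf-29 had 1.77 ± 0.69 more IAA29 signal than clf-29 (SE, 95% CI 0.28 to 3.26; limma adjusted p = 0.287, or 0.0726 with the replicate 3 term). It was 1.75 within replicates 1 and 2 and 1.83 between the replicate 3 arrays, and 0.93 over all replicates without clf-29 replicate 2. Against brm-1 it was −1.17 ± 0.69 (SE, 95% CI −2.66 to 0.32; limma adjusted p = 0.638, or 0.307 with the term). In brm-1 clf-29 against clf-29 1.47% of genes were called, 4.53% with the term and 4.33% within replicates 1 and 2. Against brm-1 these shares were 0.217%, 1.89% and 2.69%.

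The order of IAA29 means was thus brm-1, brm-1 clf-29, Col and clf-29, from high to low. No neighbours in that order differed by the test. The effect of losing BRM on IAA29 was 1.77 where CLF was also lost and 1.58 where CLF was present, and the interaction, the gap between these effects, was 0.19 ± 0.97 (SE, 95% CI −1.91 to 2.30; limma adjusted p = 0.994, or 0.961 with the replicate 3 term). It was 0.69 within replicates 1 and 2 and −0.80 between the replicate 3 arrays. No gene was called for the interaction in the limma fit over all 12 arrays (0%), where 754 genes had an unadjusted p under 0.05, while 0.0299% were called with the replicate 3 term and 0.21% within replicates 1 and 2.

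**Figure D2:**
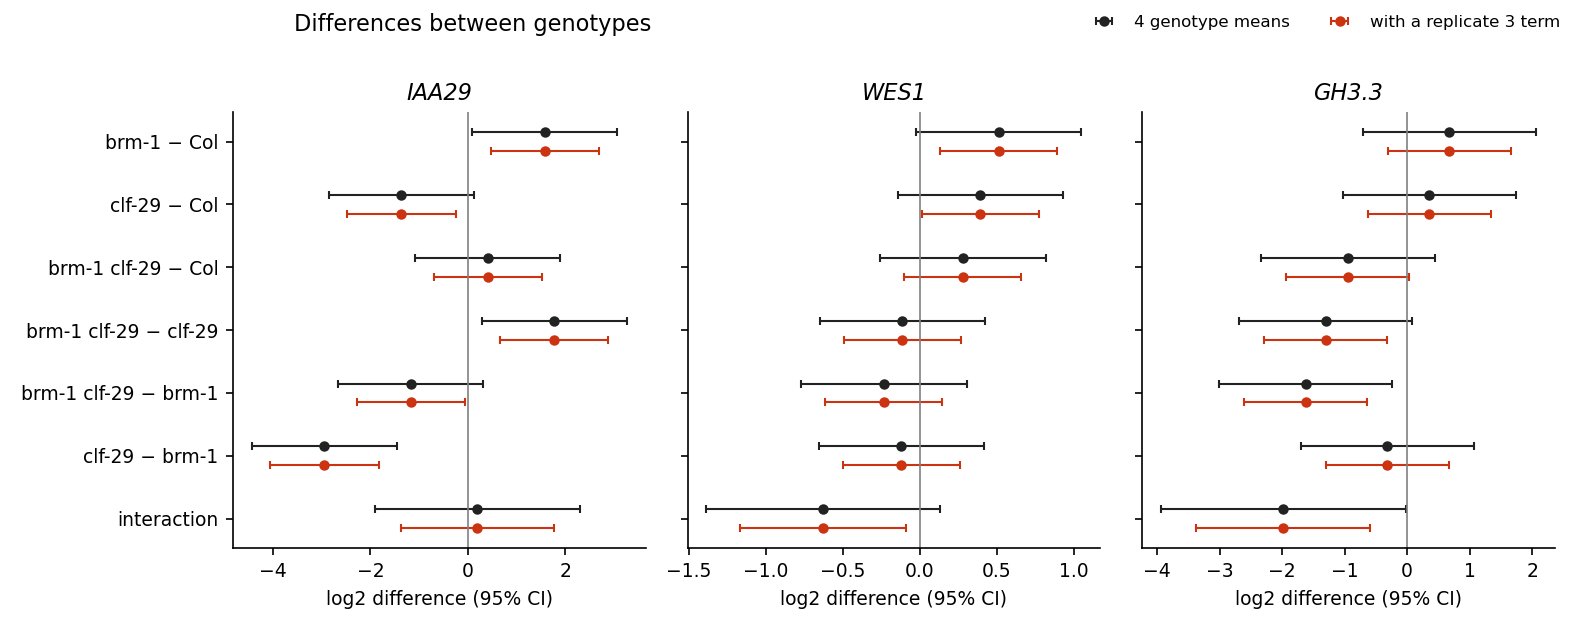
Log2 differences between genotypes (horizontal axes, a separate range for each gene; first named genotype minus the second) with 95% confidence intervals, for IAA29, WES1 and GH3.3, from the fit of 4 genotype means (black) and with a term for replicate 3 (red). The lowest IAA29 value is clf-29 minus brm-1 at −2.94, with both intervals below 0; the WES1 values all lie between −0.63 and 0.51.

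WES1 varied least of the 3 genes, and no comparison passed the test. WES1 signal was 10.10, 9.79 and 9.74 in brm-1, 10.12, 10 and 9.15 in clf-29, 9.49, 9.74 and 9.70 in brm-1 clf-29, and 9.71, 9.49 and 8.89 in Col. The brm-1 arrays all lay above the Col arrays, by a margin of 9.74 over 9.71 at the closest. In that comparison the arrays of 20.6% of all genes did not overlap. The other mutants overlapped with Col. The low values in clf-29 and Col were both from replicate 3.

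The WES1 means from high to low were 9.88 ± 0.20 in brm-1, 9.76 ± 0.53 in clf-29, 9.64 ± 0.13 in brm-1 clf-29 and 9.36 ± 0.42 in Col. The difference from Col was 0.51 ± 0.25 in brm-1 (SE, 95% CI −0.02 to 1.05; limma adjusted p = 0.405, or 0.122 with the replicate 3 term). It was 0.39 ± 0.25 in clf-29 (SE, 95% CI −0.14 to 0.93; limma adjusted p = 0.601, or 0.27 with the term) and 0.28 ± 0.25 in brm-1 clf-29 (SE, 95% CI −0.26 to 0.82; limma adjusted p = 0.635, or 0.386 with the term). Within replicates 1 and 2 the value was 0.35 for brm-1, 0.46 for clf-29 and 0.02 for the double mutant, and none passed.

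Over all arrays WES1 in brm-1 clf-29 differed from clf-29 by −0.11 ± 0.25 (SE, limma adjusted p = 0.92, or 0.824 with the term) and from brm-1 by −0.23 ± 0.25 (SE, limma adjusted p = 0.823, or 0.611 with the term). Within replicates 1 and 2 these values were −0.45 (limma adjusted p = 0.0963) and −0.33 (limma adjusted p = 0.271), and between the replicate 3 arrays 0.55 and −0.04. In clf-29 against brm-1 WES1 differed by −0.12 ± 0.25 (SE, limma adjusted p = 0.891, or 0.789 with the term), with 0.12 within replicates 1 and 2 and −0.59 between the replicate 3 arrays. Neighbours in the order therefore did not differ by the test. The effect of losing BRM was −0.11 where CLF was lost and 0.51 where it was present, an interaction of −0.63 ± 0.35 (SE, 95% CI −1.39 to 0.13; limma adjusted p = 0.882, or 0.482 with the term). It was −0.79 within replicates 1 and 2 and −0.30 between the replicate 3 arrays. Photosynthetic leaf markers lay with WES1 in being lower in Col. The summed signal of the 2 measured of 6 listed, RCA and LHCB4.1, was 46100 to 48300 in brm-1, 45300 to 48900 in clf-29, 43600 to 51100 in brm-1 clf-29 and 38200 to 38900 in Col on the linear scale. Neither marker passed the test in any comparison, where 0% to 4.99% of all genes did. The part of these markers in the WES1 values was not tested.

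GH3.3 had its lowest signals in replicates 1 and 2 of the double mutant. The signal was 8.44, 9.05 and 10.88 in brm-1, 9.07, 9.36 and 8.98 in clf-29, 6.95, 7.17 and 9.38 in brm-1 clf-29, and 8.23, 9.15 and 8.96 in Col. In brm-1 clf-29 replicates 1 and 2 lay below every other array and replicate 3 lay above every Col array. In brm-1 replicate 3 was the highest of all 12 arrays, so the spread within these genotypes was larger than between most genotype means.

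Over all arrays GH3.3 averaged 7.83 ± 1.34 in brm-1 clf-29 and 8.78 ± 0.49 in Col. The difference was −0.95 ± 0.64 (SE, 95% CI −2.33 to 0.44; limma adjusted p = 0.496, or 0.229 with the replicate 3 term). Within replicates 1 and 2, with 2 arrays per genotype, it was −1.63 and passed the test (limma adjusted p = 0.00249), as did 11.4% of all genes. Between the replicate 3 arrays it was 0.42. The direction against Col thus turned between the sets of replicates.

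The same held for GH3.3 in brm-1 clf-29 against clf-29. The difference was −1.30 ± 0.64 over all arrays (SE, 95% CI −2.69 to 0.08; limma adjusted p = 0.424, or 0.139 with the replicate 3 term), −2.16 within replicates 1 and 2 (limma adjusted p = 0.00116) and 0.40 between the replicate 3 arrays. Within replicates 1 and 2, 4.33% of all genes were called in this comparison and 2.69% in that of brm-1 clf-29 against brm-1. Against brm-1 the double mutant was lower in both sets, by values that were close. The difference was −1.62 ± 0.64 over all arrays (SE, 95% CI −3.01 to −0.24; limma adjusted p = 0.422, or 0.0961 with the replicate 3 term), −1.69 within replicates 1 and 2 (limma adjusted p = 0.00919) and −1.50 between the replicate 3 arrays.

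GH3.3 averaged 9.46 ± 1.27 in brm-1 and 9.14 ± 0.20 in clf-29. In brm-1 the difference from Col was 0.68 ± 0.64 (SE, 95% CI −0.71 to 2.06; limma adjusted p = 0.75, or 0.499 with the replicate 3 term), made of 0.06 within replicates 1 and 2 and 1.92 between the replicate 3 arrays. In clf-29 it was 0.36 ± 0.64 (SE, 95% CI −1.03 to 1.74; limma adjusted p = 0.892, or 0.774 with the term), with 0.53 within replicates 1 and 2 and 0.02 between the replicate 3 arrays. In clf-29 against brm-1 it was −0.32 ± 0.64 (SE, limma adjusted p = 0.888, or 0.78 with the term), made of 0.47 within replicates 1 and 2 and −1.90 between the replicate 3 arrays. Neighbours in the order brm-1, clf-29, Col and brm-1 clf-29 did not differ by the test over all arrays.

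The effect of losing BRM on GH3.3 was −1.30 where CLF was lost and 0.68 where CLF was present. The interaction was −1.98 ± 0.90 (SE, 95% CI −3.94 to −0.02; limma adjusted p = 0.872, or 0.374 with the replicate 3 term). It was negative in both sets of replicates, at −2.21 within replicates 1 and 2 (limma adjusted p = 0.0522) and −1.52 between the replicate 3 arrays.

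The study's methods took a 1.5-fold difference, with no test, as the criterion. By it IAA29 was 2.99-fold higher and GH3.3 1.60-fold higher in brm-1 than in Col, as were 23.9% of genes past that size in either direction. IAA29 was 2.57-fold lower in clf-29 than in Col (23.7% of genes past 1.5-fold), and GH3.3 was 1.93-fold lower in brm-1 clf-29 than in Col (28%). On the log2 scale, where 1.5-fold is 0.58, 3 of these 4 differences fell under the criterion without a single array. IAA29 in clf-29 against Col was −0.52 without clf-29 replicate 2, GH3.3 in brm-1 clf-29 against Col was −0.505 without replicate 1 of brm-1 clf-29, and GH3.3 in brm-1 against Col was −0.035 without brm-1 replicate 3. WES1 stayed under 1.5-fold in all 3 mutants, at 1.43-fold in brm-1, 1.31-fold in clf-29 and 1.21-fold in the double mutant.

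The departure of replicate 3 from replicates 1 and 2 varied with the gene and the genotype, and was shared in part by IAA29 and GH3.3. For IAA29 it was higher than the mean of replicates 1 and 2 by 1.58 in brm-1, 1.49 in clf-29 and 1.58 in brm-1 clf-29, and by 0 in Col. For GH3.3 the same quantity was 2.14 in brm-1, −0.24 in clf-29, 2.32 in brm-1 clf-29 and 0.27 in Col. The IAA29 value in clf-29 rested on replicate 2 at 3.23, and was 0.75 with that array set to the background measure. GH3.3 was thus higher in replicate 3 of both genotypes that carry brm-1, and IAA29 in the same genotypes, while the size for IAA29 in clf-29 depended on the dim array. For WES1 it was −0.21 in brm-1, −0.91 in clf-29, 0.09 in brm-1 clf-29 and −0.71 in Col.

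As one shift common to the 4 genotypes, replicate 3 differed for WES1 by −0.44 ± 0.13 (SE, limma adjusted p = 0.0471) and for GH3.3 by 1.12 ± 0.34 (SE, limma adjusted p = 0.0471), where 12.6% of all genes were called. For IAA29 it was 1.16 ± 0.39 (SE, limma adjusted p = 0.0695). In a term added after the GH3.3 values had been seen, the shift of genotypes with brm-1 exceeded that of genotypes without it by 2.21 ± 0.33 for GH3.3 (SE, limma adjusted p = 0.0857; 0.00749% of genes called). That excess was 0.83 ± 0.77 for IAA29 (SE, limma adjusted p = 0.968) and 0.75 ± 0.17 for WES1 (SE, limma adjusted p = 0.458). What set replicate 3 apart is not given in the labels.

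**Figure D3:**
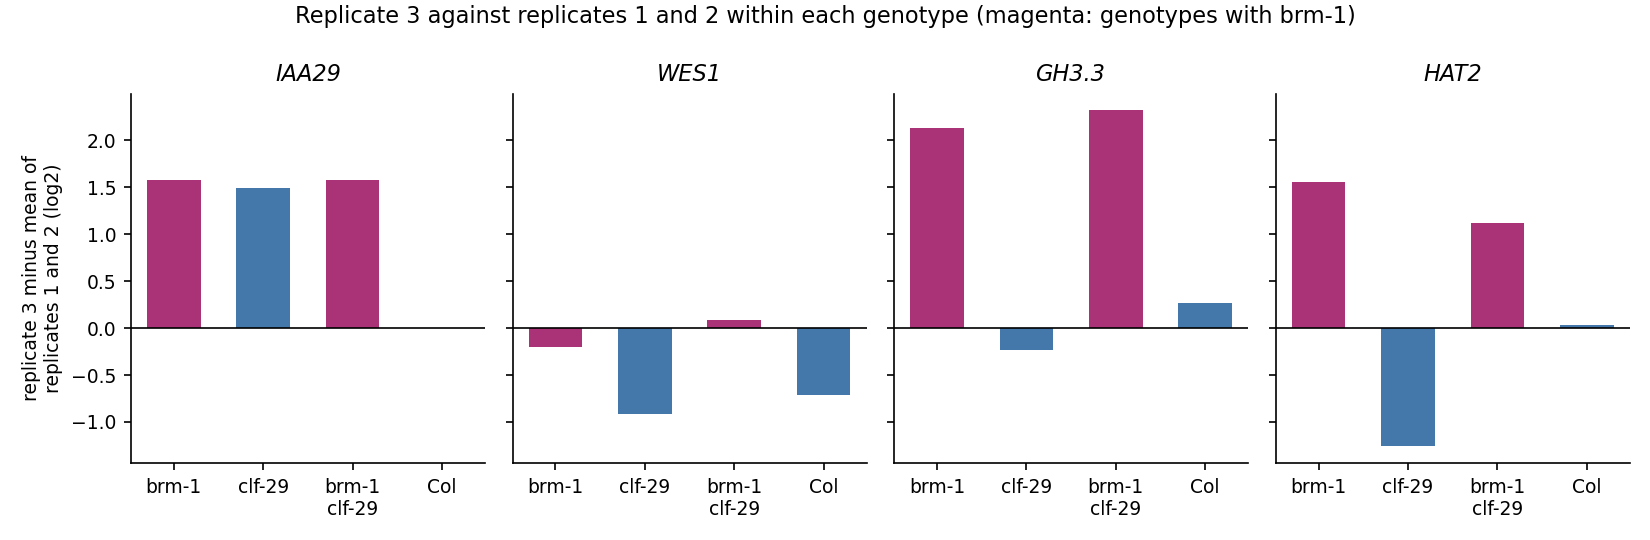
Log2 signal of replicate 3 minus the mean of replicates 1 and 2 (vertical axis, shared) within each genotype, for IAA29, WES1, GH3.3 and HAT2, with the genotypes that carry brm-1 in magenta and the others in blue. For GH3.3 the bars of brm-1 and brm-1 clf-29 stand at 2.14 and 2.32 and those of clf-29 and Col near 0; the HAT2 bars of the same 2 genotypes are also above 0, and that of clf-29 is below 0.

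HAT2, a homeobox gene known to be induced by auxin, was picked out after its values were seen. Its signal was 9.47, 9.67 and 11.13 in brm-1, 10.83, 10.91 and 9.61 in clf-29, 9.73, 9.88 and 10.92 in brm-1 clf-29, and 9.35, 9.52 and 9.47 in Col. As for GH3.3, replicate 3 was the highest array in both genotypes with brm-1 and the lowest in clf-29. LBD16, listed with HAT2 as auxin-induced, went the other way in both single mutants. Its signal was 6.78, 6.31 and 5.68 in brm-1 and 5.79, 6.29 and 6.79 in clf-29, while in brm-1 clf-29 replicate 3 was the highest. LBD29, the last measured gene of that list, lay under 4.71 on every brm-1 and clf-29 array. HAT2 averaged 10.45 ± 0.73 in clf-29 and 9.45 ± 0.09 in Col, a difference of 1.003 ± 0.444 (SE, limma adjusted p = 0.394).

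The wider pathway was measured only in part, with 25 of 118 listed auxin genes, the 3 members among them. The lists of ARF transcription factors, TIR1/AFB receptors, SAUR genes, shade and PIF genes and salicylic acid genes had no member among the genes named singly, and were not analysed here. In the fit over all 12 arrays IAA29 in clf-29 against brm-1 was the only call among the 25 in any of the 7 comparisons. Of all genes 2.82% were called in clf-29 against brm-1, and 0% to 4.99% over the 7 comparisons. The count among the 25 was not tested against these shares.

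Of the Aux/IAA family 7 of 29 genes were measured, and the others besides IAA29 were IAA18, IAA20, IAA30, IAA31, IAA33 and IAA34. In clf-29 against brm-1 the median difference of the 6 others was −0.22, with 3 positive, 3 negative and none called. Over all genes the median was 0.02 and 2.82% were called. Of these 6, 3 had a mean over all arrays under 4.71. IAA34 ran the same way as IAA29, at 3.12 ± 1.48 in clf-29 and 5.28 ± 0.30 in brm-1, but 2 of its 3 clf-29 arrays, at 1.94 and 2.65, were under the background measure (−2.16 ± 0.83, SE, limma adjusted p = 0.241). IAA33 ran the other way, at 5.21 ± 0.53 in clf-29 and 3.903 ± 0.892 in brm-1 (1.31 ± 0.70, SE, limma adjusted p = 0.442), as did IAA31 (0.87 ± 0.37, SE, limma adjusted p = 0.291), and IAA18 differed by 0.01. Every IAA33 array of brm-1, at 2.94, 4.7 and 4.07, was under the background measure, as was clf-29 replicate 3 at 4.61. Against Col the median of the 6 was 0.02 in brm-1, −0.09 in clf-29 and 0.23 in brm-1 clf-29, with none called. Of all genes 1.86%, 0.943% and 4.99% were called in these comparisons.

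IAA31, another gene of the Aux/IAA family, had its highest signals in the double mutant. IAA31 signal was 6.74, 6.39 and 6.82 in brm-1 clf-29, against 5.21, 5.53 and 5.14 in Col, and these arrays did not overlap, as in 23.8% of genes. The difference was 1.36 ± 0.37 (SE, limma adjusted p = 0.0535, or 0.0369 with the replicate 3 term). Against brm-1, where IAA31 was at 4.31, 5.29 and 4.78, it was 1.86 ± 0.37 (SE, limma adjusted p = 0.0661, or 0.0272 with the term). IAA18 averaged 9.12 ± 0.31 in brm-1 clf-29 and 9.65 ± 0.18 in Col, a difference of −0.53 ± 0.18 (SE, limma adjusted p = 0.124, or 0.00286 with the term).

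**Figure D4:**
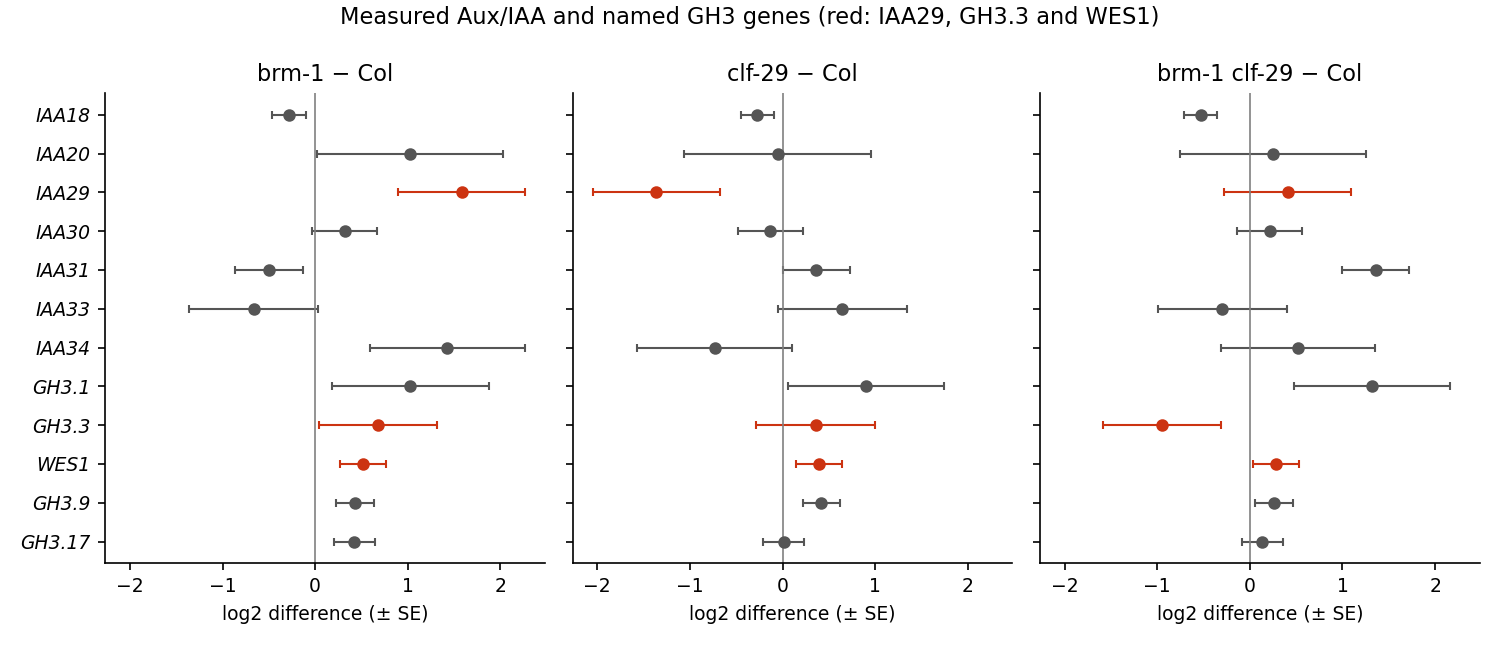
Log2 difference from Col (horizontal axes, ± SE of the fit) of the 7 measured Aux/IAA genes and the 5 GH3 genes with a symbol, in the 3 mutants, with IAA29, GH3.3 and WES1 in red. IAA29 lies at 1.58 in brm-1 and −1.36 in clf-29, and in brm-1 clf-29 IAA31 lies at 1.36 and GH3.3 at −0.95.

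Of the GH3 family 9 of 15 genes were measured, and none was called in any comparison, with or without the replicate 3 term. Of all genes 0% to 4.99% were called in these comparisons, and 0.0299% to 11.6% with the term. Leaving out WES1 and GH3.3, the median difference of the other 7 from Col was 0.42 in brm-1, 0.42 in clf-29 and 0.26 in brm-1 clf-29, and 3 of the 7 had a mean over all arrays under 4.71. These stood against medians of −0.04, 0.00 and −0.02 over all genes. In brm-1 4 of the 7 were above Col and 3 below, while 5 were above it in clf-29 and 6 in brm-1 clf-29. AT5G51470 and AT1G48670, with means of 4.7125 and 4.7525, lay at the background measure. Of the 7 only GH3.9 and GH3.17 were thus clearly above it, and GH3.17 differed from Col by 0.01 in clf-29. These medians are therefore no measure of a change in the family. GH3.9 averaged 6.98 ± 0.35 in brm-1, 6.97 ± 0.12 in clf-29, 6.81 ± 0.08 in brm-1 clf-29 and 6.55 ± 0.07 in Col. Its difference from Col in brm-1, 0.43 ± 0.20, did not pass (SE, limma adjusted p = 0.4). GH3.17 averaged 9.96 ± 0.34 in brm-1 and 9.54 ± 0.14 in Col (0.42 ± 0.22, SE, limma adjusted p = 0.468, or 0.0545 with the term). GH3.1 was one of the 3 genes under 4.71, with genotype means of 2.87 to 4.18.

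Outside both families no measured auxin list gene was called in the fit over all 12 arrays, where 0% to 4.99% of all genes were. Of the auxin synthesis genes 3 of 19 were measured, all of them YUCCA monooxygenases. YUC2 averaged 6.49 ± 0.46 in clf-29 and 7.18 ± 0.35 in brm-1 (−0.69 ± 0.29, SE, limma adjusted p = 0.3), and YUC4 and YUC6 had arrays under 4.71 in every genotype. WAG2, a kinase that acts on auxin efflux carriers, was the 1 of 18 transport genes measured, and averaged 6.48 ± 0.28 in brm-1 and 6.82 ± 0.24 in Col. LBD16, a transcription factor of lateral root formation, averaged 6.26 ± 0.55 in brm-1 and 6.93 ± 0.18 in Col (−0.67 ± 0.32, SE, limma adjusted p = 0.406).

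AT1G14120, on the list for conjugate hydrolysis and oxidation (2 of 9 measured), was not called over all 12 arrays and passed with the replicate 3 term. It averaged 7.51 ± 0.46 in brm-1 and 8.44 ± 0.10 in Col, a difference of −0.93 ± 0.28 (SE, limma adjusted p = 0.142, or 0.0181 with the term). In clf-29 it averaged 8.53 ± 0.55, against the 7.51 ± 0.46 of brm-1, a difference of 1.02 ± 0.28 (SE, limma adjusted p = 0.084, or 0.00827 with the term).

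Root and floral markers were set beside the members, since whole seedlings mix organs. The 3 root markers measured of 7 listed, EXPA7, EXPA18 and AT4G26010, had a summed linear signal of 2160 to 4670 in brm-1, 1810 to 3690 in clf-29, 2340 to 2930 in brm-1 clf-29 and 2010 to 3150 in Col. These ranges overlapped, and no root marker was called in any comparison, where 0% to 4.99% of all genes were. UFO, the 1 floral marker measured of 8, averaged 5.22 ± 0.42 in clf-29 and 1.52 ± 1.14 in Col, with every Col array under 4.71. It was called in that comparison (limma adjusted p = 0.043), as were 0.943% of all genes. Its part in the values of IAA29, WES1 and GH3.3 was not tested.

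The profiles of the 3 members were compared with each other. Over the 12 arrays, which include replicates of the same 4 genotypes and the replicate 3 shift, Pearson's r was −0.07 between IAA29 and WES1, 0.29 between IAA29 and GH3.3 and 0.06 between WES1 and GH3.3. After each genotype's mean was taken out, leaving the spread among replicates, these values were −0.357, 0.527 and −0.12. These are descriptions of 12 points that are not independent.

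The genes most like each member were sought by Pearson's r over the same arrays among genes whose mean was above the median of all genes. For IAA29 they were AT2G19460 (r = 0.957), AT1G80530 (r = 0.944) and AT5G12050 (r = 0.932). Within the 8 arrays of replicates 1 and 2 their r was 0.949, 0.916 and 0.907. These 8 arrays were among those used to pick the genes, so neither these r nor the likenesses below are a separate check. AT5G12050 signal was 8.67, 8.04 and 8.91 in clf-29, against 10.69, 10.73 and 11.41 in brm-1. It was 9.37, 9.21 and 10.58 in brm-1 clf-29 and 10.05, 9.84 and 9.74 in Col. Like IAA29 it was lowest in clf-29 replicate 2 and highest in brm-1 replicate 3. AT2G19460 averaged 7.67 ± 0.45 in clf-29 and 8.74 ± 0.27 in brm-1, with 8.42 ± 0.26 in brm-1 clf-29 and 8.37 ± 0.09 in Col.

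For WES1 the nearest were AT5G51890 (r = 0.899), AT3G18210 (r = 0.886) and psbN (r = 0.877), a plastid gene of photosystem II assembly. Within replicates 1 and 2 the r of psbN was 0.606, the lowest of the 9 genes named in this way. AT5G51890 averaged 9.69 ± 0.10 in brm-1, 9.65 ± 0.36 in clf-29, 9.58 ± 0.15 in brm-1 clf-29 and 9.11 ± 0.26 in Col, the same order of genotypes as WES1.

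For GH3.3 the nearest were AT2G27080 (r = 0.848), PUB43 (r = 0.841), a member of the plant U-box family, and AT1G11210 (r = 0.836). AT2G27080 signal was 9.22, 9.27 and 10.25 in brm-1 and 8.36, 8.01 and 9.63 in brm-1 clf-29, against 8.68, 8.58 and 9.09 in Col. As for GH3.3, replicate 3 was the highest array of both genotypes with brm-1. For AT2G27080 it was also the highest in Col and in clf-29 (8.68, 9.08 and 9.35). For GH3.3 it was the lowest array in clf-29 and the middle one in Col.

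**Figure D5:**
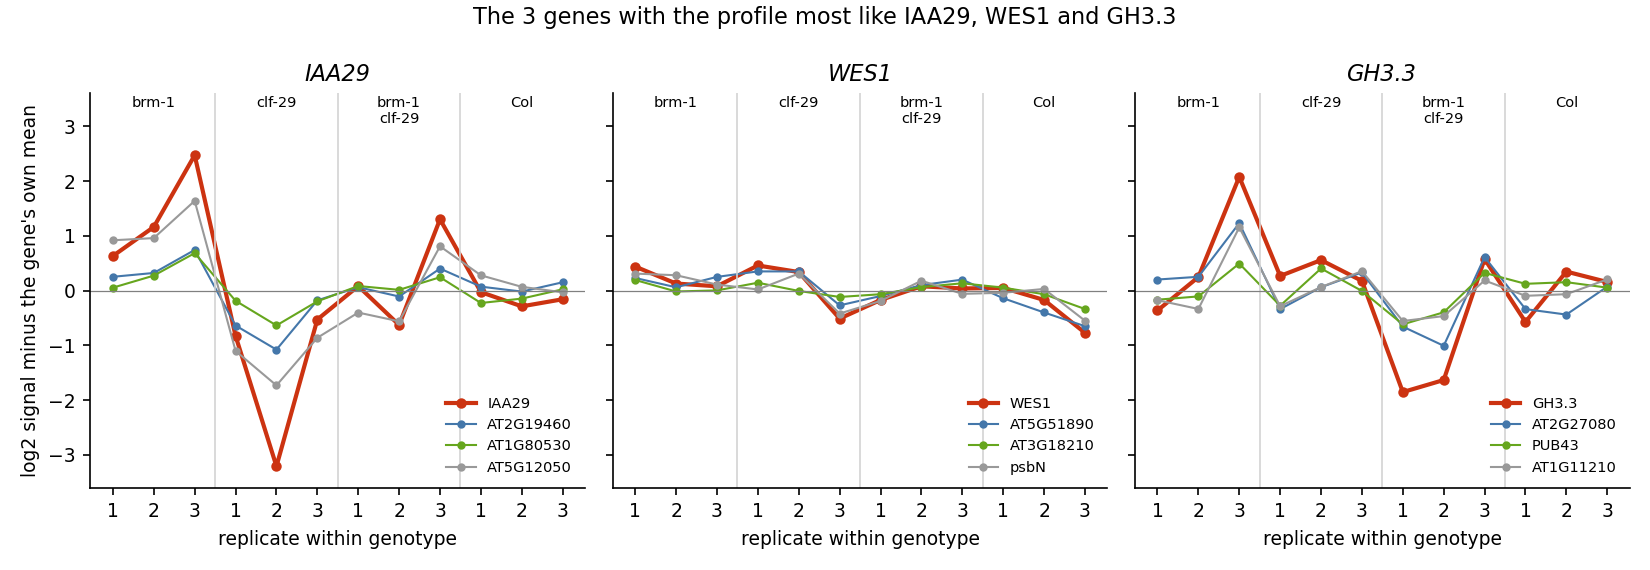
Log2 signal minus the gene's own mean over 12 arrays (vertical axis, shared) for IAA29, WES1 and GH3.3 (red) and the 3 genes with the highest Pearson's r to each (blue, green, grey), with replicates 1 to 3 of each genotype along the horizontal axis; lines join arrays only to guide the eye. The IAA29 panel dips at clf-29 replicate 2 and peaks at brm-1 replicate 3 for all 4 genes, and IAA29 has the widest swing.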

How the data were processed

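The authors deposited log2 MAS5 signals, for which the submitters' processing notes name MAS5 and affy without versions. The antilogs had a 2% trimmed mean of 499.98 to 500.02 on each array. Scanner files were not used. Of 22810 probe sets 13513 had 1 gene name, 503 several and 8794 none here; 13436 of the 13513 matched RefSeq's TAIR10.1 gene table, used for names only. A gene was represented by its brightest single-gene probe set. Tests were made in limma 3.58.1 under R 4.3.3 (1 mean per genotype, 12 arrays, 8 residual degrees of freedom, eBayes with trend, two-sided), with p-values adjusted after Benjamini and Hochberg across the 13356 genes and calls made under 0.05. The code was tested on simulated data. Depth does not apply to arrays, and their number limits the precision.

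Members and gene lists were chosen with earlier results of these data known. Named genes were the members, the list genes called (or up to 2 with the smallest adjusted p), measured Aux/IAA and GH3 genes, and the 3 genes most correlated with each member. Deviations from genotype means correlated between same-numbered arrays at 0.215 to 0.438 (replicate 1), 0.196 to 0.417 (replicate 2) and 0.441 to 0.708 (replicate 3), so the numbers of the sample titles were taken as pairs in an alternative with a replicate block. Replicates 1 and 2 of different genotypes correlated with each other as well, at 0.162 to 0.488, and with replicate 3 at −0.60 to −0.27. Other alternatives were a replicate 3 term, replicates 1 and 2 only, only the compared genotypes, quantile or median normalization, an offset of 16, genes under the median left out, every non-control probe set, eBayes without trend or robust, array weights and each array left out. A floor at the background percentile, a replicate 3 term that differs with brm-1, and the replicate 3 term with arrays left out were chosen after seeing the data. Promoter and protein sequences were not used here.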

Additional observations from a re-analysis of the deposited data

How the results depend on the processing

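IAA29 in clf-29 against brm-1 stayed negative under every alternative run. It was no longer called with only the compared genotypes (−2.94, limma adjusted p = 0.122), eBayes without a trend (−2.94, 0.111), robust eBayes (−2.94, 0.0624) or dim values at the background percentile (−2.45, 0.0745), and with each array left out it ranged between −3.44 and −2.10. With the replicate block it was called (limma adjusted p = 0.00304), and the block changed no call of the 3 genes.

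GH3.3 in brm-1 clf-29 became called within replicates 1 and 2, at −1.63 against Col (11.4% of genes called), −2.16 against clf-29 (4.33%) and −1.69 against brm-1 (2.69%). With a replicate 3 term differing with brm-1, chosen after the GH3.3 values were seen, it was called at −0.95, −1.30 and −1.62 (limma adjusted p = 0.0147, 0.00501 and 0.00287), as was WES1 in brm-1 against Col (0.51, limma adjusted p = 0.0211). No result of GH3.3 or WES1 was called with the plain replicate 3 term over all arrays. Among these alternatives signs turned only for values that were called neither over all arrays nor under the alternative. Within replicates 1 and 2 IAA29 in brm-1 clf-29 against Col was −0.12, and in clf-29 against brm-1 WES1 was 0.12 and GH3.3 0.47 (0.10 with array weights). The IAA29 interaction was −0.14 with the offset and −0.30 with the floor.

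With each array left out in turn, with or without the replicate 3 term, ranges that crossed 0 were −0.035 to 1.19 for GH3.3 in brm-1 against Col, −0.022 to 0.96 for GH3.3 in clf-29 against Col, −0.12 to 0.85 for IAA29 in brm-1 clf-29 against Col, −0.42 to 0.068 for WES1 in the double mutant over clf-29, −0.30 to 0.18 for WES1 and −0.83 to 0.39 for GH3.3 in clf-29 against brm-1, and −0.65 to 0.77 for the IAA29 interaction. IAA29 ranged between 1.06 and 1.98 in brm-1 against Col (with the term called without clf-29 replicate 2), between 0.93 and 2.35 in the double mutant over clf-29 (with the term called without Col replicate 3 or clf-29 replicate 1) and between −3.52 and −2.10 in clf-29 against brm-1. IAA29 in clf-29 against Col ranged between −1.94 and −0.52, the last without clf-29 replicate 2, and was −0.87 with the floor. GH3.3 in the double mutant ranged between −1.72 and −0.505 against Col, between −2.08 and −0.86 over clf-29 and between −2.40 and −0.91 over brm-1, and with the term both were called without replicate 3 of clf-29 or of brm-1 clf-29.

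Of the 25 auxin list genes, the number called for brm-1 against Col was 0, and 1 with the replicate 3 term, the block, replicates 1 and 2, or array weights. For brm-1 clf-29 against Col it was 0, 2 with the term, the block or replicates 1 and 2, and 1 under compared genotypes, both normalizations, the offset, every probe set, robust eBayes, array weights or the floor. For clf-29 against brm-1 it was 1, 2 with the term, the block or array weights, 3 within replicates 1 and 2, 0 in the settings that lost IAA29 or left out genes under the median, and 0 to 2 with an array left out. For brm-1 clf-29 against brm-1 it was 0, and 1 with the term, the block, replicates 1 and 2, the offset, robust eBayes, array weights or the floor. Replicates 1 and 2 also gave 1 for clf-29 against Col, 2 for the double mutant over clf-29 and 1 for the interaction. With an array left out, 0 to 1 were called for the double mutant against Col or clf-29. Over all genes the shares without and with the term were 1.86% and 5.47% for brm-1 against Col and 4.99% and 11.6% for brm-1 clf-29. They were 2.82% and 7.51% for clf-29 against brm-1, and 0.217% and 1.89% for brm-1 clf-29 against brm-1. Within replicates 1 and 2 they were 5.5% for clf-29 against Col, 4.33% for the double mutant over clf-29 and 0.21% for the interaction. The counts were not tested against these shares.

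Over all genes, calls ranged across settings from 90 to 730 for brm-1 against Col (249 in the fit of 4 means), 42 to 735 for clf-29 (126), 356 to 1553 for brm-1 clf-29 (667), 61 to 605 for brm-1 clf-29 against clf-29 (196), 3 to 359 against brm-1 (29), 182 to 1003 for clf-29 against brm-1 (376) and 0 to 28 for the interaction (0). No member had a second probe set to try. Values near the background measure of 4.71, among them IAA29 in clf-29 replicate 2, carry little information on level.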
